A study of Mus musculus with 8 samples.

Results

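Newly forming oligodendrocytes were followed through 10 genes, Enpp6, Bmp4, Zfp488, Gpr17, Neu4, Itpr2, Nkx2-2, Bcas1, Tcf7l2 and Casr, which were matched by symbol in a table of 53278 genes. All 10 were present and all 10 had enough counts to be tested. They were read in bulk RNA sequencing of whole forebrain from 8 C57BL/6J mice, all male and 10 to 20 weeks old. Food with PLX3397, which inhibits the receptor kinase CSF1R that microglia depend on, was given to 4 of them over 9 days (depleted mice), while the other 4 received control food (control mice). Every mouse given the drug lost microglia, so effects of the drug and of microglial loss cannot be told apart. The genes were chosen by their role in this cell stage and selected on counts whose depleted against control differences in these same 8 libraries were already known. Their differences between the groups are therefore a description of the choice, and the fit across all genes is quoted beside them without being read as independent evidence.

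Oligodendrocytes arise throughout adult life from precursor cells that carry the growth factor receptor PDGFRA and the proteoglycan NG2. A precursor that leaves the cycle passes through a short committed and premyelinating stage, marked by GPR17, BCAS1 and ENPP6, before it either dies or wraps axons with myelin. Most transcripts of that stage are switched off again in mature cells, whereas BCAS1 is shared with myelinating cells. Several of the genes are also used elsewhere in the forebrain: TCF7L2 is abundant in thalamic neurons, ITPR2 is the main store-release channel of astrocytes, and BMP4 is made outside the oligodendrocyte lineage as well. In a bulk sample, more cells of a type and more RNA per cell cannot be told apart.

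Library totals lay between 48455538 and 68406688 counts. Csf1r, the drug target, averaged 1.22 ± 0.609 CPM (counts scaled to the library total, with TMM normalization) in depleted mice and 58.6 ± 5.49 CPM in control mice (SD, n = 4 each), and all 16 microglial marker genes fell. The summed level of the microglial markers was 33.8 to 40.6 CPM in depleted mice and 309 to 372 CPM in control mice. The dissections differed: depleted mice 2 and 3 and control mice 2 and 3 had 1249 to 2081 counts of the hypothalamic transcript Hcrt, and the other 4 mice had 4 to 12. Neuronal and astrocyte marker sums overlapped between the groups, at 6635 to 8612 CPM and 3600 to 4333 CPM in depleted mice, against 6933 to 8816 CPM and 3684 to 4228 CPM in control mice. Striatal markers summed to 882 to 3436 CPM in depleted mice and 360 to 1764 CPM in control mice. In the edgeR fit described below, all 12 had a positive log2 fold change (median 1.4). At an unadjusted p under 0.05 in edgeR, 10 were higher and 0 lower, where 5.38% of all genes tested were higher, and 0 passed after adjustment. Their part in the results was not tested beyond the fits with a striatum score.

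The stretch before the annotated start is shown for each of the 3 genes that passed the threshold of the fit described below. Whether these stretches regulate the genes in these forebrains was not tested. Each line gives the 250 bases upstream of the gene start on its own strand, from RefSeq on GRCm38.p6: chr8:46986637-46986886, plus strand, for Enpp6, chr14:46390670-46390919, minus strand, for Bmp4, and chr14:33978765-33979014, minus strand, for Zfp488. Capitals mark matches on either strand to the E-box CANNTG, to the SOX core ACAANG and to the NK2 homeodomain core TNAAGTG, none of which overlap here.
Enpp6: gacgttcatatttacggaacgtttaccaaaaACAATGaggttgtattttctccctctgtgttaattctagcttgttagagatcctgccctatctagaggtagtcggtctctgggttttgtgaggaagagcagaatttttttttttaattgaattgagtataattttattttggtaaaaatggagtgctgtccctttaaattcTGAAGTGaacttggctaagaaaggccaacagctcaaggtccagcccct
Bmp4: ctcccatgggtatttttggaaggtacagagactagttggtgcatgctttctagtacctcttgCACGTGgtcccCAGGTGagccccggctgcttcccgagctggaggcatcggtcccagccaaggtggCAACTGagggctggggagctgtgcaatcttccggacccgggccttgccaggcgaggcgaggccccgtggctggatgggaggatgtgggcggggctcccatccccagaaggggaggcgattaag
Zfp488: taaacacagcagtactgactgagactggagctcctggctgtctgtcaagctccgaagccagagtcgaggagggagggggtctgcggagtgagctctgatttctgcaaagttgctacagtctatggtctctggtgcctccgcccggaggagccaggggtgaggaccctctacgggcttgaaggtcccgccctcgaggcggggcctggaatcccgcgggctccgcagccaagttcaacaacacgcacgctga

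Of these windows, the one of Bmp4 held 3 E-boxes and the other two none, while Enpp6 held 1 SOX core and 1 NK2 core, and Zfp488 held none of these. Windows of this length were found for 8 of the 10 genes, and 4 of these genes held an E-box, 3 a SOX core and 3 an NK2 core. A gene was counted if any of its windows matched, and Tcf7l2 had more than a single window. The shares that follow are per window. Over all 32851 promoter windows 66.2% held an E-box, 36.3% a SOX core and 10.1% an NK2 core. The TCF/LEF core CTTTGA was found in 1 of the 8 genes, against 13.8% of all windows, and the GC-rich SMAD sequence GGCGCC in 1, against 9.59%. The window of Enpp6 was poor in G and C (38.4%) beside those of Bmp4 (63.2%) and Zfp488 (61.6%), with a median of 52.4% over all windows. These matches are descriptions of letters and do not show binding.

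In edgeR's quasi-likelihood fit over 20140 genes, 3 of the 10 genes rose in depleted forebrains (Enpp6, Bmp4 and Zfp488) at a Benjamini-Hochberg adjusted p under 0.05, where 0.0546% of all genes tested did so. None fell, where 1.11% of all genes did, so that 1.16% changed in either direction. At an unadjusted p under 0.05, 4 were higher and 0 lower, where 5.38% of all genes were higher and 5.6% lower. DESeq2 called 4 higher and 0 lower, where it called 0.616% of the same genes higher and 1.67% lower, and limma-voom called 3 and 0, where it called 0.0447% higher and 1.12% lower. The genes separated into 2 kinds. In 4 of them (those 3 and Gpr17) every depleted mouse lay above every control mouse, as did 2.28% of all genes tested; no gene had every depleted mouse below every control mouse, where 3.5% of all genes did (5.77% in either direction), and in the other 6 the groups overlapped. The median log2 fold change of the 10 was 0.23, beside 0.00 over all genes tested. Because the genes were chosen with this contrast known, nothing is read from these shares.

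**Figure D1:**
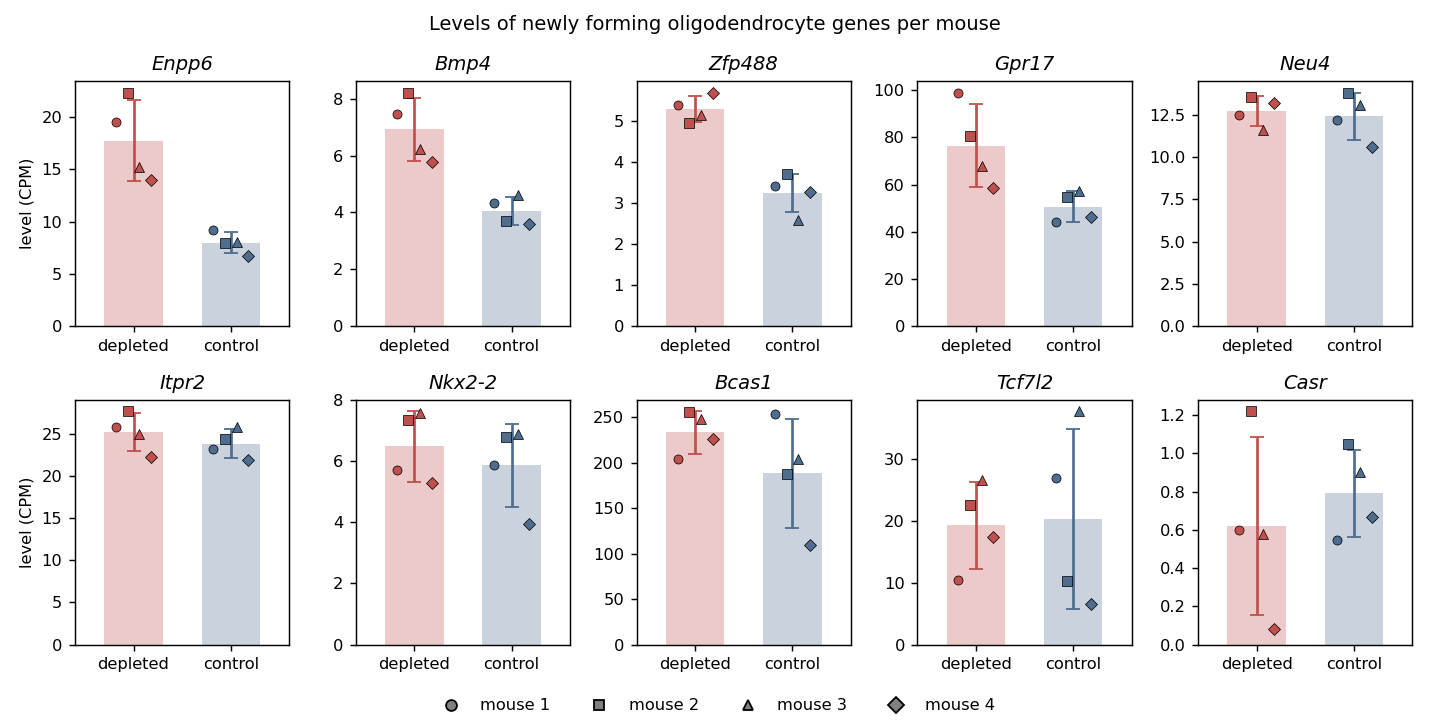
Level of each gene (y axis, CPM, from 0) in the 4 depleted mice (left, red) and the 4 control mice (right, blue). Points are single mice, bars are group means and error bars are SD (n = 4). The groups are apart for Enpp6, Bmp4, Zfp488 and Gpr17 and overlap for the other 6 genes.

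Among the enzymes, Enpp6 changed most. It encodes a choline-specific glycerophosphodiesterase and is a marker of oligodendrocytes that have just begun to differentiate. Enpp6 had 19.6, 22.4, 15.2 and 13.9 CPM in depleted mice 1 to 4, against 9.17, 7.95, 8.01 and 6.75 CPM in control mice 1 to 4. The lowest depleted mouse was thus well above the highest control mouse. The means were 17.8 ± 3.89 CPM in depleted mice and 7.97 ± 0.988 CPM in control mice (SD, n = 4 each), a log2 fold change of 1.16 (SE 0.16, 95% interval 0.80 to 1.51; edgeR adjusted p = 0.00419). Depleted mice 1 and 2 were higher than depleted mice 3 and 4, and the spread was wider in depleted mice (coefficient of variation 21.9%) than in control mice (12.4%). The gene lies on chromosome 8, from 46986887 to 47096762 (mm10, GENCODE M21), and shares no exon bases with another annotated gene.

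Neu4, the second enzyme, encodes a sialidase that removes terminal sialic acids from glycoconjugates. It had 12.5, 13.6, 11.6 and 13.2 CPM in depleted mice 1 to 4, against 12.2, 13.8, 13.1 and 10.6 CPM in control mice 1 to 4. The depleted mice all lay inside the range of the control mice. Its log2 fold change was 0.04 (SE 0.10), and the 95% interval of -0.19 to 0.26 did not reach the fold change of Enpp6, Bmp4 or Zfp488.

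Bmp4 is the secreted ligand of the set. It belongs to the bone morphogenetic proteins, which hold back the maturation of oligodendrocyte precursors, and its own transcript marks committed precursors. Bmp4 had 7.45, 8.22, 6.23 and 5.78 CPM in depleted mice 1 to 4, against 4.33, 3.71, 4.61 and 3.59 CPM in control mice 1 to 4. The same 2 depleted mice, 1 and 2, were highest as for Enpp6, and no depleted mouse reached down to the control range. Its level averaged 6.92 ± 1.12 CPM in depleted mice and 4.06 ± 0.492 CPM in control mice (SD, n = 4 each; log2 fold change 0.77, SE 0.14, 95% interval 0.45 to 1.09, edgeR adjusted p = 0.0312). The call was lost without depleted mouse 1 or 3 or control mouse 1, 2 or 4, with adjusted p from 0.058 to 0.128, while the fold change stayed between 0.68 and 0.84 whichever mouse was left out. Bmp4 lies on chromosome 14, from 46383520 to 46390669, and shares 89 exon bases with Gm15217 on the opposite strand, a gene with at most 5 counts in any library.

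The receptors and channels of the set are Gpr17, Casr and Itpr2. Gpr17 encodes a G protein-coupled receptor that is switched on in committed precursors and off again as they mature. It had 99.0, 80.6, 68.0 and 58.5 CPM in depleted mice 1 to 4, against 43.9, 54.9, 57.4 and 46.3 CPM in control mice 1 to 4. Depleted mouse 4 was barely above control mouse 3, whereas depleted mouse 1 stood far above every control mouse. The means were 76.5 ± 17.5 CPM in depleted mice and 50.6 ± 6.54 CPM in control mice (SD, n = 4 each), a log2 fold change of 0.60 (SE 0.16, 95% interval 0.25 to 0.94). Gpr17 did not pass in edgeR over all genes (adjusted p = 0.177) but passed in DESeq2 (adjusted p = 0.0179). It shares 188 exon bases on the opposite strand with Lims2, which averaged 18.2 ± 0.988 CPM in depleted mice and 12.6 ± 2.27 CPM in control mice (log2 fold change 0.53, SE 0.12); the strand setting of the counting is not given in the sources used here, so reads of the pair may be mixed.

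Casr, the calcium-sensing receptor gene, was the scarcest of the set. It had 33, 60, 40 and 4 counts in depleted mice 1 to 4, against 30, 51, 49 and 36 counts in control mice 1 to 4, or 0.620 ± 0.466 CPM in depleted mice and 0.791 ± 0.227 CPM in control mice. Depleted mouse 4 alone was far below the rest. The log2 fold change of -0.35 (SE 0.54) had a 95% interval of -1.55 to 0.85, which holds the fold changes of Bmp4 and Zfp488 as well as 0 and a large fall. Itpr2, which encodes an inositol trisphosphate receptor that releases calcium from internal stores, was by contrast the steadiest gene of the set in control mice, with a coefficient of variation of 7.10%. It had 25.8, 27.7, 25.0 and 22.2 CPM in depleted mice 1 to 4, against 23.3, 24.4, 25.9 and 21.9 CPM in control mice 1 to 4. The groups overlapped, and the 95% interval of its log2 fold change of 0.08 (SE 0.08) was -0.11 to 0.27.

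Of the 3 transcription factor genes, Zfp488 rose and the other 2 did not pass. Zfp488 encodes a zinc finger regulator that acts together with OLIG2 in oligodendrocyte differentiation. It had 5.37, 4.94, 5.14 and 5.68 CPM in depleted mice 1 to 4, against 3.40, 3.69, 2.59 and 3.26 CPM in control mice 1 to 4. The depleted mice were close together, with a coefficient of variation of 5.99%, and depleted mice 1 and 2 did not stand out as they did for Enpp6, Bmp4 and Gpr17. The means were 5.28 ± 0.316 CPM in depleted mice and 3.23 ± 0.464 CPM in control mice (SD, n = 4 each; log2 fold change 0.71, SE 0.13, 95% interval 0.42 to 0.99, edgeR adjusted p = 0.0275). The call was lost without depleted mouse 1, 3 or 4 or control mouse 1, 3 or 4, with adjusted p from 0.0592 to 0.104, at fold changes of 0.62 to 0.78 over all 8 mice left out in turn. The gene lies on chromosome 14, from 33967070 to 33978764, and shares no exon bases with another annotated gene.

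Nkx2-2 encodes a homeodomain factor that is needed for timely oligodendrocyte differentiation. It had 5.71, 7.34, 7.59 and 5.29 CPM in depleted mice 1 to 4, against 5.86, 6.80, 6.87 and 3.96 CPM in control mice 1 to 4. In both groups mice 2 and 3, the forebrains with hypothalamic tissue, were the higher pair. The log2 fold change was 0.14 (SE 0.19, 95% interval -0.28 to 0.57).

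Tcf7l2 encodes a transcription factor that carries Wnt signals to the genome and is present for a short time in newly formed oligodendrocytes. It had 10.4, 22.5, 26.6 and 17.4 CPM in depleted mice 1 to 4, against 26.8, 10.2, 37.7 and 6.49 CPM in control mice 1 to 4. The control mice alone spanned most of the range, with a coefficient of variation of 71.8%, the widest of the 10 genes in that group. Its level went with that of 12 thalamic marker genes, whose sum was highest in control mouse 3 (517 CPM), the mouse with the most Tcf7l2, and lowest in control mouse 4 (198 CPM), the mouse with the least. The log2 fold change was -0.08 (SE 0.50, 95% interval -1.20 to 1.04), and -0.25 (SE 0.29) with the thalamus score as a covariate. The part of thalamic tissue in the level was not tested beyond that fit.

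Bcas1, a gene of early myelinating oligodendrocytes that stays on in myelinating cells, was the most abundant of the set. It had 204, 256, 248 and 226 CPM in depleted mice 1 to 4, against 254, 187, 204 and 109 CPM in control mice 1 to 4. Control mouse 1 was as high as the highest depleted mice, and control mouse 4 was far below all other mice. The means were 234 ± 23.3 CPM in depleted mice and 189 ± 60.1 CPM in control mice (SD, n = 4 each; log2 fold change 0.31, SE 0.21, 95% interval -0.16 to 0.78). Control mouse 4 also had the lowest sum of 22 mature oligodendrocyte and myelin genes, 4803 CPM, against 7750 to 9237 CPM in the other control mice and 7402 to 10987 CPM in depleted mice. Without control mouse 4 the log2 fold change of Bcas1 was 0.12, and with the myelin score as a covariate it was -0.01.

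**Figure D2:**
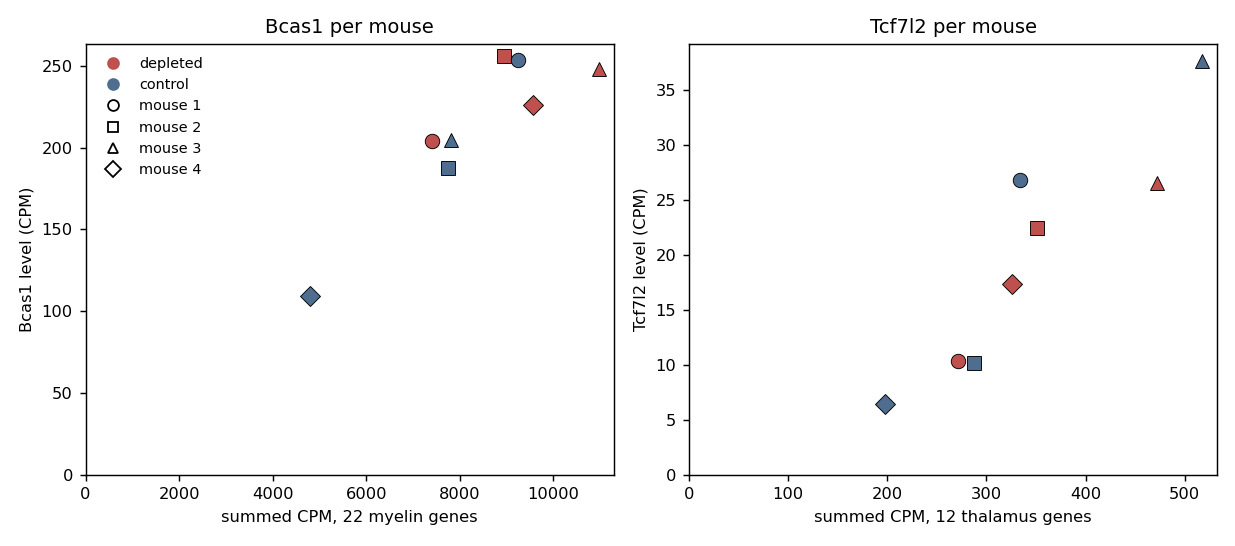
Left, Bcas1 level (CPM) against the summed level of 22 mature oligodendrocyte and myelin genes (CPM) in each mouse; right, Tcf7l2 level (CPM) against the summed level of 12 thalamic marker genes (CPM). Red points are depleted mice, blue points control mice, and the shape gives the mouse number. Control mouse 4 is lowest on both axes of both panels, at 109 CPM of Bcas1 and 6.49 CPM of Tcf7l2.

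**Figure D3:**
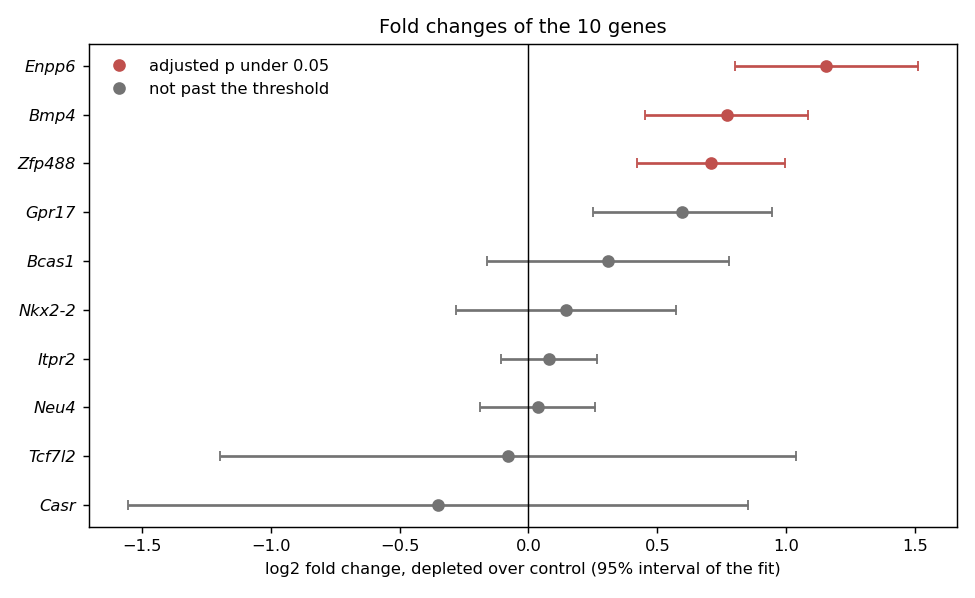
Log2 fold change of each gene, depleted over control (x axis), with the 95% interval of edgeR's fit (horizontal line). Red marks the 3 genes at an adjusted p under 0.05. The intervals of Enpp6, Bmp4, Zfp488 and Gpr17 lie above 0, and those of Tcf7l2 (-1.20 to 1.04) and Casr (-1.55 to 0.85) are the widest.

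Levels were compared between the genes per kilobase of annotated exon (RPKM, CPM divided by the union exon length). In control mice the order was Bcas1 (50.0 ± 15.9 RPKM), Gpr17 (9.75 ± 1.26), Neu4 (2.68 ± 0.302), Tcf7l2 (2.31 ± 1.66), Nkx2-2 (2.04 ± 0.472), Bmp4 (1.81 ± 0.219), Itpr2 (1.61 ± 0.114), Enpp6 (1.24 ± 0.154), Zfp488 (0.752 ± 0.108) and Casr (0.168 ± 0.048 RPKM). Ranges over the control mice did not overlap between Bcas1 and Gpr17, Gpr17 and Neu4, Itpr2 and Enpp6, Enpp6 and Zfp488, or Zfp488 and Casr, while the neighbours from Neu4 down to Itpr2 overlapped. In depleted mice Bmp4 (3.08 ± 0.497 RPKM) and Enpp6 (2.77 ± 0.607 RPKM) took the third and the fourth place, ahead of Neu4 (2.75 ± 0.188 RPKM), and the ranges of these 3 genes overlapped. Bcas1 made up 66.7% of the summed RPKM of the 10 genes in depleted mice and 68.1% in control mice, and Enpp6 2.98% in depleted mice and 1.77% in control mice.

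Across the mice, control mouse 4 was the lowest control mouse in 7 of the 10 genes, depleted mouse 2 the highest depleted mouse in 6, and depleted mouse 4 the lowest depleted mouse in 6. The fold changes of the 4 separated genes were also computed within each kind of dissection, where only 2 mice per group remain. For these 4 genes every depleted mouse lay above every control mouse. A rise in both kinds of dissection was thus set in advance, and only the sizes are described. In the mice with hypothalamic tissue the log2 fold changes were 1.23 (SE 0.19) for Enpp6, 0.79 (SE 0.20) for Bmp4, 0.69 (SE 0.21) for Zfp488 and 0.41 (SE 0.10) for Gpr17. In the mice without it they were 1.08 (SE 0.23) for Enpp6, 0.75 (SE 0.22) for Bmp4, 0.74 (SE 0.20) for Zfp488 and 0.81 (SE 0.24) for Gpr17. None of these passed the threshold over all genes in those smaller fits (edgeR adjusted p from 0.109 to 0.86).

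Closest to Enpp6 by profile over the 8 mice, measured as the root mean square difference of log2 CPM centred on each gene's mean, was Bmp4 among the set, at 0.214. Gpr17 (0.348) and Zfp488 (0.355) came next, then Bcas1 (0.484), Itpr2 (0.552), Nkx2-2 (0.557) and Neu4 (0.584), and Tcf7l2 (0.92) and Casr (1.212) were farthest. Among 13928 other genes whose log2 CPM averaged 1 or more, the 5 with the smallest difference were the kinesin gene Kif19a (0.293), the lens filament gene Bfsp2 (0.294), the transcript listed as CT009510.2 (0.32), the proliferation marker gene Mki67 (0.345) and the complement gene C4b (0.35). None of these 5 passed over all genes in edgeR. This likeness includes the difference between the groups.

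Among 19 genes of the precursors that precede this stage, 5 fell and 0 rose in edgeR, where 1.11% of all genes tested fell, and the list median log2 fold change was -0.28. Not all moved: 5 of the 19 had a positive log2 fold change, among them Cacng4 (0.33, SE 0.25), while Ptprz1 (-0.08, SE 0.12) and Cspg5 (-0.04, SE 0.06) were close to 0. The summed level of the list overlapped between the groups, at 771 to 868 CPM in depleted mice and 809 to 967 CPM in control mice. The largest of the 5 falls was that of the matrilin gene Matn4, which averaged 7.32 ± 1.06 CPM in depleted mice and 14.7 ± 1.24 CPM in control mice (95% interval of the log2 fold change -1.27 to -0.74). It was followed by log2 fold changes of -0.98 (SE 0.13) for Pdgfra, -0.86 (SE 0.08) for Cspg4, the gene of the NG2 proteoglycan, -0.57 (SE 0.10) for the matrix gene Emid1 and -0.41 (SE 0.08) for the retinaldehyde-binding protein gene Rlbp1, the last named outside the rule after its value was seen. Emid1 lost its call without depleted mouse 3 or 4 or control mouse 1, 2 or 3 (edgeR adjusted p up to 0.125), and Rlbp1 without any single mouse other than depleted mouse 2 (up to 0.183). At an unadjusted p under 0.05 in edgeR, 10 precursor genes were lower and 0 higher, where 5.6% of all genes were lower. DESeq2 called 7 lower and 0 higher, where it called 1.67% of all genes lower. For limma-voom the counts were 5 and 0, where it called 1.12% of all genes lower. The ratio of Enpp6 to Pdgfra on the CPM scale was 1.20, 0.987, 0.594 and 0.625 in depleted mice 1 to 4, against 0.246, 0.185, 0.172 and 0.150 in control mice 1 to 4. Both genes of this ratio had been chosen or reported for this contrast, so it is a description of their joint size.

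A second list of 21 genes of newly forming oligodendrocytes, outside the 10, had a median log2 fold change of 0.06. In edgeR 1 gene rose and 0 fell, where 0.0546% of all genes tested rose and 1.11% fell. At an unadjusted p under 0.05, 9 of the 21 were higher and 0 lower, where 5.38% of all genes were higher. Among these 9 was Lims2, which shares 188 exon bases with Gpr17, so its reads may be mixed with those of Gpr17. Myrf, also among the 9, is counted again with the lineage transcription regulators. DESeq2 called 5 higher and 0 lower, where it called 0.616% of all genes higher. The limma-voom fit called 1 and 0, where it called 0.0447% of all genes higher. The gene that rose was Sirt2, a deacetylase gene abundant in oligodendrocytes (188 ± 8.54 CPM in depleted mice and 146 ± 11.1 CPM in control mice; log2 fold change 0.36, SE 0.07, edgeR adjusted p = 0.0414). Its call was lost without any single mouse other than depleted mouse 2, with edgeR adjusted p up to 0.146. Elovl7, a fatty acid elongase gene, stood at 0.56 (SE 0.11, edgeR adjusted p = 0.0577) and Kif19a at 0.64 (SE 0.15, edgeR adjusted p = 0.112). The kinase gene Fyn stood at 0.23 (SE 0.10), and other members were nearer to 0, such as Tmem163 (0.03, SE 0.10) and Ust (0.03, SE 0.11).

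Among 22 mature oligodendrocyte and myelin genes, 0 passed in edgeR in either direction. Of these, 9 were higher and 0 lower at an unadjusted p under 0.05, where 5.38% of all genes were higher, and DESeq2 called 5 higher and 0 lower, where it called 0.616% of all genes higher, and limma-voom 0 and 0. The median log2 fold change was 0.31, and 19 of 22 were positive. The summed level was lowest in control mouse 4 (4803 CPM), against 7750 to 9237 CPM in the other control mice and 7402 to 10987 CPM in depleted mice. How far the median rests on that mouse was not tested. Mbp and Mobp both stood at 0.21 (SE 0.22), while Apod (-0.07), Klk6 (-0.18) and Hapln2 (-0.01) were negative. The tight junction gene Cldn11 stood at 0.62 (SE 0.13, edgeR adjusted p = 0.068) and the membrane protein gene Mal at 0.62 (SE 0.13, edgeR adjusted p = 0.0739).

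**Figure D4:**
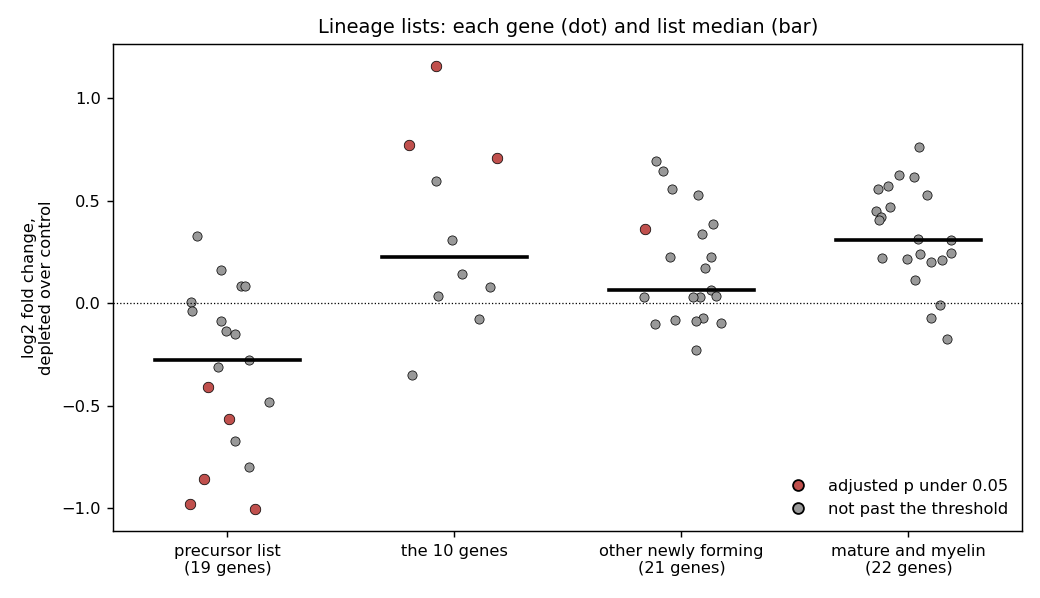
Log2 fold change, depleted over control (y axis), of each gene (dot) in the precursor list, the 10 genes, the second list of newly forming oligodendrocyte genes and the mature list; black bars are list medians and red dots have an adjusted p under 0.05. The medians were -0.28, 0.23, 0.06 and 0.31.

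Genes of the regulatory pathways around the set did not pass in the fit as reported. Their counts at an unadjusted p under 0.05 stand beside 5.38% of all genes higher and 5.6% lower. Of 25 lineage transcription regulators 0 were called in edgeR, DESeq2 or limma-voom, and 3 were higher and 3 lower at an unadjusted p under 0.05 (median -0.01). The Notch effector gene Hes5 stood at -0.47 (SE 0.15) and Myrf, which switches on myelin genes, at 0.38 (SE 0.13). Olig1 and Olig2 both stood at -0.02, and Sox10 at 0.23 (SE 0.13). Of 29 BMP pathway genes beside Bmp4, 0 were called in any of the 3 tools, and 3 were higher and 1 lower at an unadjusted p under 0.05 (median 0.08). The secreted BMP antagonist gene Chrd stood at -0.72 (SE 0.22, edgeR adjusted p = 0.288), the antagonist gene Nog at -0.02, and the receptor gene Bmpr1a at 0.12 (SE 0.08). The target genes Id1, Id2 and Id3 stood at -0.03, 0.10 and 0.10, and Id4 at 0.47 (SE 0.17, edgeR adjusted p = 0.356). Of 27 Wnt and TCF/LEF genes beside Tcf7l2, 0 were called in any of the 3 tools, with 2 higher and 2 lower at an unadjusted p under 0.05 (median 0.02). The coreceptor gene Lrp5 stood at -0.37 (SE 0.11), the corepressor gene Tle4 at 0.39 (SE 0.12) and the feedback target gene Axin2 at -0.05 (SE 0.08).

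Proliferation genes, which the precursors but not their postmitotic progeny use, lay beside these differences. Of 10 cell division genes 2 rose and 0 fell, where 0.0546% of all genes rose. They were Top2a (1.81, SE 0.30, edgeR adjusted p = 0.0164) and Bub1 (2.25, SE 0.42, edgeR adjusted p = 0.0328). Bub1 was near the floor, at 0.244 to 0.476 CPM in depleted mice and 0.037 to 0.124 CPM in control mice. At these levels it met the filter through the depleted mice alone, so its call and fold change are only a description. At an unadjusted p under 0.05 in edgeR, 8 of the 10 were higher and 0 lower, where 5.38% of all genes were higher. DESeq2 called 3 higher, where it called 0.616% of all genes higher, and limma-voom 2, where it called 0.0447%. The median log2 fold change of the list was 1.11. Top2a lost its call without depleted mouse 3 or control mouse 1 (edgeR adjusted p up to 0.0718), and Bub1 kept it only without depleted mouse 2 or control mouse 2 when single mice were left out (otherwise up to 0.134). The summed level of the 10 genes was 46.7 to 56.4 CPM in depleted mice and 39.3 to 44.9 CPM in control mice, highest in depleted mouse 1, which also had the most Gpr17. Which cells carried these transcripts was not tested.

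**Figure D5:**
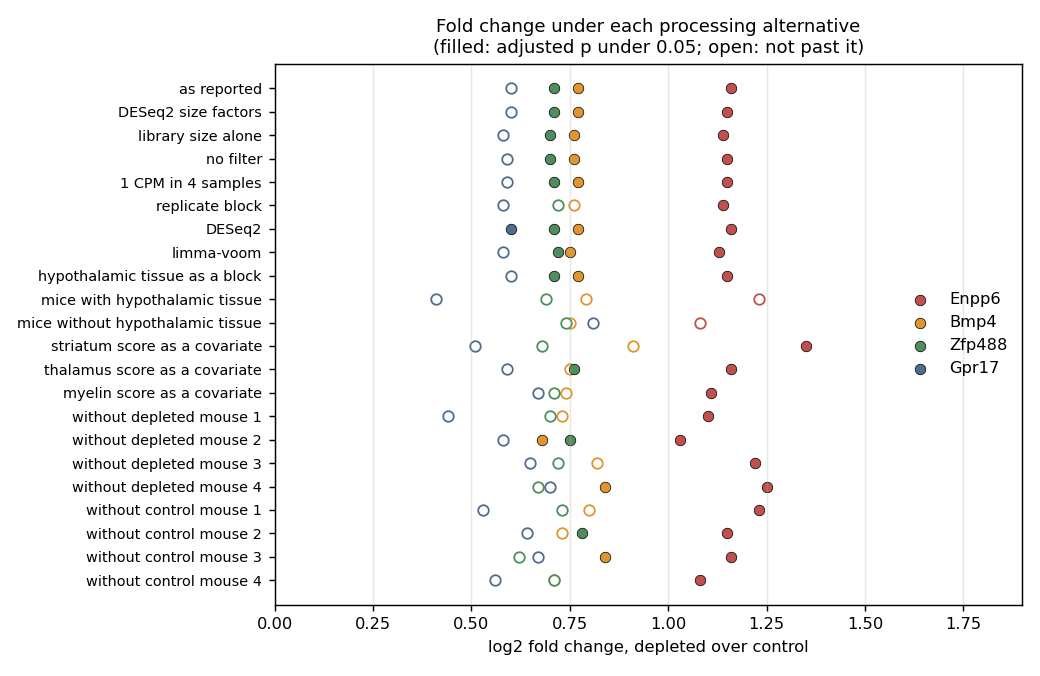
Log2 fold change, depleted over control (x axis), of Enpp6, Bmp4, Zfp488 and Gpr17 as reported and under each processing alternative or left-out mouse (rows); filled points have an adjusted p under 0.05. All points lie above 0, from 0.41 for Gpr17 to 1.35 for Enpp6; the points of Bmp4 and Zfp488 coincide at 0.71 without control mouse 4.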

How the data were processed

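The deposited table held whole-number raw counts per gene symbol for 8 libraries, each column named after 1 mouse. Per the submitters' processing notes the tools were STAR, FastQC, MultiQC, DESeq and DESeq2, on mm10. Not given in the sources used here are versions, settings, the counting step, its strandedness and the annotation release. Of 53278 symbols, 93.3% matched GENCODE M21, which gave coordinates, exon lengths and overlaps. Each library was a separate mouse per the labels, and no replicate pair agreed within sampling noise (chi-square per gene at least 12.3 times the noise).

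After filterByExpr (20140 genes) and TMM scaling, depleted mice were compared with control mice by edgeR 4.0.16 (glmQLFit and glmQLFTest, in R 4.3.3) without covariates, and p-values were Benjamini-Hochberg adjusted over all genes tested (threshold 0.05). Each standard error is the absolute fold change divided by the square root of F. Biological variation between mice had a coefficient of 16.1%. CPM are on the TMM scale, with a prior count of 2 for log2 CPM. The steps were also run on simulated counts in which every gene had the same 16.1% variation between mice. Fitted values of single genes differed, such as 9.95% for Itpr2, 48.5% for Tcf7l2 and 52.6% for Casr. That run therefore does not describe such genes.

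The 10 genes and the 19 other gene lists were chosen with earlier results of these data known. Of the 280 list entries 279 were matched, 1 through an older symbol; the other was not analysed here. Beside the 10 genes, named genes were the up to 4 members of each pathway list past the threshold, or its 2 lowest p-values if none did, and the 5 genes closest to Enpp6; other genes named beside a list were chosen after their values were seen. Alternatives were DESeq2 size factors, library size alone, no filter, a minimum of 1 CPM in 4 samples, DESeq2 1.42.0, limma-voom (limma 3.58.1), a block for the replicate number, a block or a split by hypothalamic tissue (Hcrt counts of 100 or more), a striatum, thalamus or myelin score as a covariate, and each mouse left out in turn. Single mice far from their group were sought with Dixon's ratio (critical value 0.829 for 4 samples).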

Additional observations from a re-analysis of the deposited data

Results flagged for a closer look

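Among 70 groups of 4 mice tested, 3 held a mouse far from the other 3 of its group, where chance flags about 1 in 20. Control mouse 4 had 129.8 CPM of Sirt2 against 149.9 to 153.5 CPM in the other control mice, a gap of 0.846 of the range of the group. The same mouse had 12.8 CPM of Matn4 against 15.2 to 15.4 CPM in the other control mice, a gap of 0.919 of the range. Emid1 stood at 4.04 CPM in depleted mouse 1 and at 3.44 to 3.54 CPM in depleted mice 2 to 4, a gap of 0.83 of the range. None of the 10 genes of newly forming oligodendrocytes had such a mouse in either group.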

How the results depend on the processing

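The log2 fold changes of Enpp6, Bmp4, Zfp488 and Gpr17 were positive in all 21 alternatives. For the left-out mice and the split by hypothalamic tissue, this sign was set in advance by the separation of the groups. Enpp6 passed in 19 (1.03 to 1.35), Bmp4 in 10 (0.68 to 0.91), Zfp488 in 10 (0.62 to 0.78) and Gpr17 in 1 (0.41 to 0.81). Of the other genes called, Pdgfra passed in 21, Cspg4 and Matn4 in 20 each, Top2a in 16 and Emid1 in 10. Rlbp1 passed in 6, Sirt2 in 5 and Bub1 in 8 of 20. None of these genes changed sign. Over the alternatives in edgeR, DESeq2 and limma-voom, the adjusted p reached 0.469 for Top2a, 0.556 for Emid1 and 0.647 for Sirt2. It reached 0.86 for Bub1 and 0.982 for Rlbp1. Of the other named genes not called as reported, Cldn11 passed in 6 (0.40 to 0.70) and Mal in 4 (0.41 to 0.68). Hes5 passed in 2 (-0.67 to -0.34) and Chrd in 2 (-0.98 to -0.25). The count of the 10 genes that rose was 3 as reported. It was 1 with the replicate block, the striatum score or the myelin score, and 1 to 3 without single mice. It was 0 within the mice with hypothalamic tissue and 0 within those without it, where each fit had fewer samples. At an unadjusted p under 0.05 in edgeR, 5 of the 10 were higher within the mice with that tissue, where 393 of 20331 genes tested were. Within the mice without it 4 were higher, where 981 of 20476 genes tested were. None of the 10 fell in any alternative. The median log2 fold change, 0.23, was 0.02 with the myelin score and 0.08 to 0.38 without single mice; the cause was not tested. Over all genes, 11 rose and 223 fell as reported. The count of rises was 25 without a filter, 6 with at least 1 CPM in 4 samples, 4 with the replicate block, 128 in DESeq2 over its own set of genes (with 351 falls), 0 within the mice with hypothalamic tissue (393 unadjusted, with 66 falls), 128 within those without it, 2 with the striatum score and 92 with the myelin score. Without single mice it was 2 to 243, with 178 to 441 falls, the highest of both without depleted mouse 2 and the fewest rises without depleted mouse 3. Genes that changed sign never passed: Neu4 was -0.09 within the mice with hypothalamic tissue and -0.03 with the myelin score (-0.03 to 0.09 without single mice), Nkx2-2 -0.11 and Bcas1 -0.01 with the myelin score (Nkx2-2 -0.00 to 0.23 without single mice), Neu1 0.03 with the striatum score, and Tcf7l2 0.16 with the replicate block, 0.17 in limma-voom, 0.04 within the mice with hypothalamic tissue, 0.06 with the striatum score and -0.37 to 0.41 without single mice. Deviations of same-numbered mice correlated at -0.22 to 0.37 across genes, and 1 of 4 depleted mice matched its own number best. Same-numbered mice did share the kind of dissection, with hypothalamic tissue in mice 2 and 3 of both groups. The labels name no batch, and whether the numbers stand for one was not tested. Casr, with 4 to 60 counts, and Bub1, with at most 0.476 CPM in any mouse, were too weak for the filter of 1 CPM in 4 samples.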

Other observations

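Relatives of the 10 genes did not pass in edgeR, DESeq2 or limma-voom. In the Enpp family, 5 genes beside Enpp6 were tested and 3 were higher and 0 lower at an unadjusted p under 0.05 in edgeR, where 5.38% of all genes were higher and 5.6% lower. Enpp4 averaged 33.2 ± 2.33 CPM in depleted mice and 28.0 ± 1.26 CPM in control mice (SD, n = 4 each; log2 fold change 0.24, SE 0.07), and Enpp2, the autotaxin gene that oligodendrocytes and choroid plexus both express, stood at 0.44 (SE 0.16). Of the 3 other sialidase genes, Neu2 stood at 0.56 (SE 0.28), Neu1 at -0.07 (SE 0.06) and Neu3 at 0.15, and 0 had an unadjusted p under 0.05. Of 15 calcium store genes, which include the other two inositol trisphosphate receptors, 4 were higher and 1 lower at an unadjusted p under 0.05; Itpr1, abundant in neurons, stood at 0.59 (SE 0.22) and the phospholipase gene Plcb4 at 0.25 (SE 0.10). Of 4 relatives of the calcium-sensing receptor, 0 had an unadjusted p under 0.05, with Gprc5c at -0.27 (SE 0.17) and the GABA-B receptor gene Gabbr1 at 0.11 (SE 0.07).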
